A study of Mus musculus with 9 samples.

Results

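Gene expression was described in the control cells of a knockdown study, from 3 of its 9 arrays. The cells were immortalized mouse embryonic fibroblasts of the ICR stock, a proliferating line that came from connective tissue cells of the embryo. Each control culture had been infected for 2 h with an adenovirus at a titre of 1e8 pfu/ml and was then kept for another 70 h in normal medium with 10% serum at 37 °C. The virus encoded a scrambled short hairpin RNA, shRNA, which is meant to silence no gene. The other 6 arrays carried an shRNA against HSF1 or against RPA1 and entered no comparison made here. All groups, the controls included, were infected, so no array shows uninfected cells. Whether the 3 control arrays came from separate cultures was not given, so the spread between them and every p-value may be technical.

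All 3 control arrays were used, and 19938 genes were ranked by their mean log2 signal. For a gene with more than 1 row in the table the brightest row was kept. Probe sets differ in how well they bind, so a rank orders array signal and not numbers of transcripts. The median gene had a signal of 8.37, the 90th percentile lay at 11.38 and the 99th percentile at 13.05. Array medians over all rows were 7.75 to 7.81. The arrays were close to each other: the median SD of a gene over the 3 arrays was 0.057, and 582 genes had an SD above 0.2.

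Background was read from genes that fibroblasts are not known to express as a class. The first reference was the 1224 ranked genes of olfactory, vomeronasal and bitter taste receptors, with a median signal of 5.41. Their 95th percentile on each array, at 7.02 to 7.05, is called the sensory receptor ceiling. In limma's moderated test of the 3 arrays against this ceiling, with Benjamini-Hochberg adjustment over all genes, 13566 of 19938 genes (68.0%) were above it at an adjusted p under 0.05, and 5611 (28.1%) were below it. The remaining genes passed in neither direction. The 6372 genes (32.0%) that were not above are called near background. A second reference, chosen after its values were seen, was the 84 genes of hair keratin-associated proteins and beta-defensins. Their 95th percentile was higher, at 8.66 to 8.76, and 8837 genes (44.3%) were above it. Genes above the first ceiling and not above the second, 4729 in all, are called between the ceilings: their signal could not be separated from that of a gene class not known from fibroblasts. The top decile of the ranking, 1994 genes (10.0%), is called high, and all of it lay above both ceilings.

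**Figure D1:**
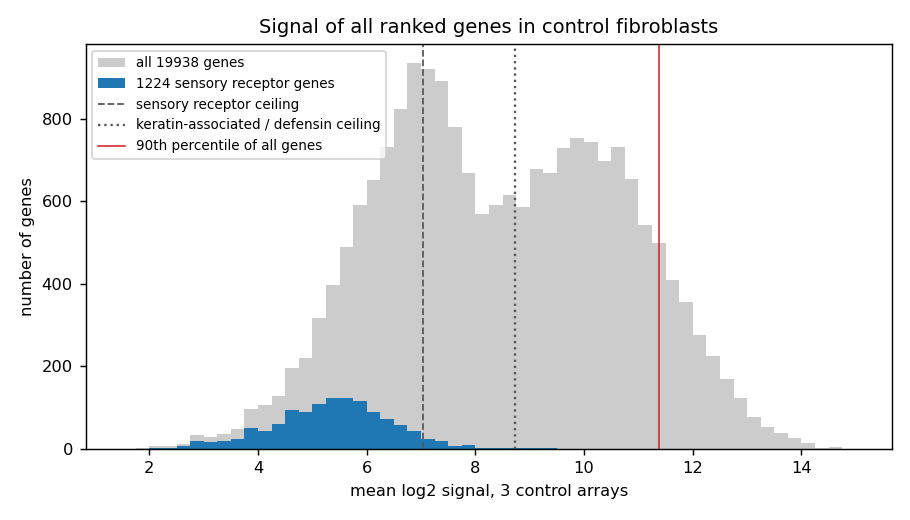
Histogram of the mean log2 signal of all 19938 genes (grey) and of the 1224 sensory receptor genes (blue) over the 3 control arrays, with the number of genes on the vertical axis. The sensory receptor genes sit in the low hump, the vertical lines mark the mean ceilings at 7.04 and 8.72, and the red line marks the 90th percentile at 11.38.

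The highest signal, 14.74 ± 0.02 (SD, n = 3), belonged to Rn7sk, the small nuclear RNA that holds back the elongation kinase P-TEFb. Eef1a1, which brings aminoacyl-tRNAs to the ribosome, had 14.59, 14.60 and 14.56 on arrays 1, 2 and 3. Cytoplasmic actin, Actb, had 14.47, 14.45 and 14.46. Ribosomal proteins took 8 of the first 30 places. Of 61 ribosomal protein genes measured, 45 were high (73.8%) and 56 were above both ceilings (91.8%), beside 10.0% and 44.3% of all genes. The tissue-restricted copies Rpl3l at 6.18 and Rpl39l at 5.02 were near background. The second place, Baiap2l1 at 14.73, rested on the choice of row: its rows had means of 14.73, 12.49 and 10.53. The glycolytic enzyme gene Hk1 was in the same position, with rows at 13.87 and 10.48. In all, 430 of the 999 genes with several rows had rows that differed by over 1 on the log2 scale, as did 18 of the 230 high genes of the lists described here.

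Fibroblasts build the connective tissue of organs. They secrete fibrillar collagens, fibronectin and proteoglycans, carry the receptors for platelet-derived growth factor (PDGF), and keep a mesenchymal cytoskeleton of vimentin rather than keratin. The cells are therefore set beside markers of that type. The list was chosen with earlier results of these data known, so its counts do not check the label. Of 18 fibroblast markers, 15 were above both ceilings and 10 were high, with a median signal of 11.87, beside 44.3% and 10.0% of all genes and a median of 8.37.

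Fibronectin, Fn1, which links integrins to the matrix, had signals of 14.14, 14.11 and 14.19 and took place 9. Vimentin, Vim, had 14.01, 14.02 and 14.01. Both collagen I chains were high, with Col1a1 at 13.06, 13.05 and 12.98 and Col1a2 at 12.81, 12.78 and 12.77. No array stood apart for these genes, and the lowest value lay more than 5 log2 units above the highest sensory receptor ceiling. The PDGF receptor beta gene Pdgfrb had 12.028, 12.068 and 12.003. Its partner Pdgfra was lower in signal at 10.49, 10.45 and 10.34, and the calcium-binding protein gene S100a4 had 10.12, 10.27 and 10.23. Both were above both ceilings but not in the top decile. Each of the 5 genes passed against the sensory receptor ceiling, with differences from 3.17 ± 0.04 (SE, limma adjusted p = 9.3e-09) for S100a4 to 5.99 ± 0.03 (limma adjusted p = 1.1e-09) for Col1a1.

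Not every fibroblast marker was bright. Thy1, a surface glycoprotein used to sort fibroblasts, lay between the ceilings at 7.98, 7.94 and 7.92. Fap, a surface protease of activated stroma, had 6.22, 6.10 and 6.12, which was 0.89 below the sensory receptor ceiling (SE 0.03, limma adjusted p = 1.1e-06). Lumican, Lum, a collagen-binding proteoglycan, was lowest at 5.45, 5.52 and 5.15. None of the 3 genes was above the second ceiling on any array. Decorin, Dcn, of the same proteoglycan family as lumican, read 13.05, 13.01 and 13.05. RNA came from whole cultures, so fewer cells expressing a gene and less RNA per cell cannot be told apart.

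**Figure D2:**
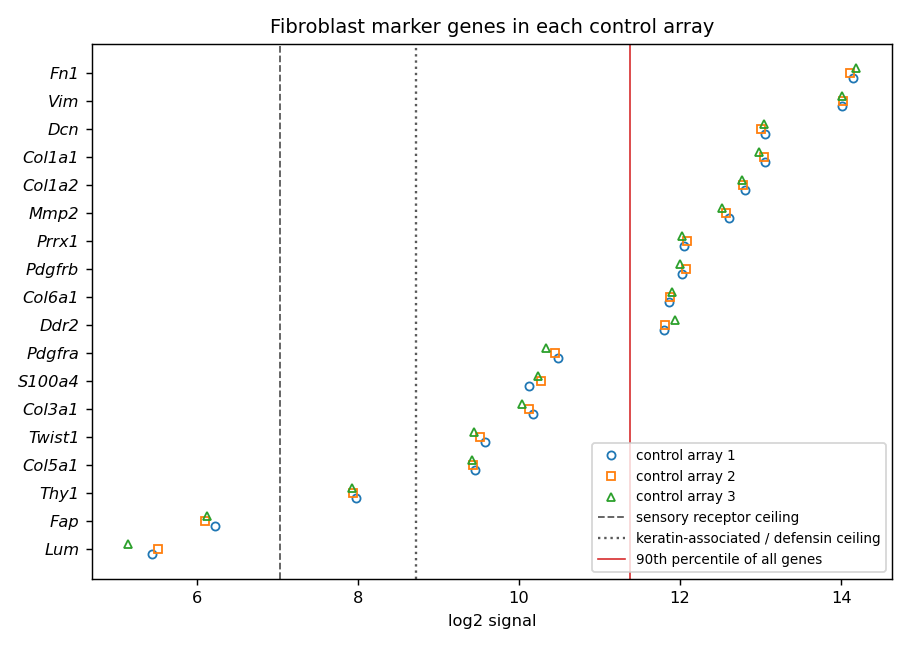
Log2 signal of the 18 fibroblast markers (rows) on each of the 3 control arrays (symbols), with both mean ceilings and the 90th percentile of all genes as vertical lines. The markers run from Fn1 at a mean of 14.15 to Lum at 5.37, and the 3 symbols of a gene nearly coincide.

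The promoters of 2 of the high fibroblast markers and of Alb, the liver albumin gene at the other end of the ranking, are shown to set bright genes beside a dim one. Their GC shares differ. Each is the 250 bases before the annotated start in RefSeq (assembly GRCm38.p6), 5′ to 3′ on the gene's strand, outside the transcript. Capitals mark CCAAT, the box bound by NF-Y, in either orientation, and TATAAA, the TATA box. Col1a2 lies at chr6:4505368-4505617 (+), Vim at chr2:13574061-13574310 (+) and Alb at chr5:90460620-90460869 (+).
Col1a2: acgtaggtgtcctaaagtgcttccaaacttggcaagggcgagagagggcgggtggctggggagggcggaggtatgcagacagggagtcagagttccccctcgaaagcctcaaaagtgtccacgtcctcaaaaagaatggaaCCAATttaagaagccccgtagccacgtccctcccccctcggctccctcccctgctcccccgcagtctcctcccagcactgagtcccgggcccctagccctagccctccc
Vim: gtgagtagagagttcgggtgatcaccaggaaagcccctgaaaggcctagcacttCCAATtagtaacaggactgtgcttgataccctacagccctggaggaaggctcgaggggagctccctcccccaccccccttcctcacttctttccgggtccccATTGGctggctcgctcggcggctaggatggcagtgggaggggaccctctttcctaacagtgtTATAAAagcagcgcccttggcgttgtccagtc
Alb: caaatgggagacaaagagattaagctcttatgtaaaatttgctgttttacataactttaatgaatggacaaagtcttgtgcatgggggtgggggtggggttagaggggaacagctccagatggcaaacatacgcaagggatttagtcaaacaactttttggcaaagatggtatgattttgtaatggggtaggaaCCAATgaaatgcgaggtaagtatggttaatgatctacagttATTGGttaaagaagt
Col1a2 has a CCAAT 109 to 105 bases before the start. Vim has 2 CCAAT boxes and a TATAAA 32 to 27 bases before the start. Alb, with signals of 6.05, 6.30 and 6.30, has 2 CCAAT boxes and a GC share of 39.2%, beside 62.0% in Col1a2 and 58.4% in Vim. The ratio of observed to expected CpG is low in all of them, at 0.466 in Col1a2, 0.376 in Vim and 0.261 in Alb.

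Markers of 6 other cell types were low. These are the lineage lists that had 0 genes above both ceilings, so the pooled count of 0 follows from how they were grouped. The pluripotency, smooth muscle, neural and skeletal lists each had some above both and are given apart. Of 61 genes that mark epithelium, endothelium, blood, striated muscle, fat or endoderm and liver, 0 were above both ceilings, 30 were between them and 31 were near background. The highest was keratin 8, Krt8, at 8.71, 8.82 and 8.73, followed by the endoderm factor Foxa2 with a mean of 8.75. E-cadherin, Cdh1, had 8.35, 8.35 and 8.28 and lay between the ceilings. The endothelial adhesion gene Pecam1 at 6.85, the leukocyte phosphatase Ptprc at 5.96, the macrophage gene Adgre1 at 5.99 and the myogenic factor Myf5 at 6.21 were near background. Of 11 pluripotency and germ cell genes only Klf4, at 9.46, was above both ceilings, and Klf4 also acts outside stem cells. Pou5f1 had 6.29 and Dazl 5.34.

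Individual genes named for smooth muscle, neural or skeletal lineages lay above both ceilings, though as lists they did so in shares near or below that of all genes (44.3%). Of 12 smooth muscle genes 6 were above both ceilings, led by the actin gene Acta2 at 12.71 and the tropomyosin gene Tpm1 at 12.54. The late contractile genes Myh11 at 7.76, Cnn1 at 8.23 and Lmod1 at 7.53 were between the ceilings. Of 12 neural and glial markers 4 were above both (33.3%): the adhesion molecule Ncam1 (12.19, 12.16 and 12.19), the intermediate filament gene Nes (mean 11.02), Map2 (mean 9.20) and the neural crest factor Sox10 (9.91, 10.04 and 9.80). The glial and neuronal genes Gfap at 6.76, Olig2 at 7.01 and Snap25 at 6.64 were near background. Of 7 cartilage and bone markers, Sox9, Alpl and Col2a1 were above both ceilings at 10.23, 9.85 and 9.11, and Acan, Matn1, Sp7 and Ibsp were near background.

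**Figure D3:**
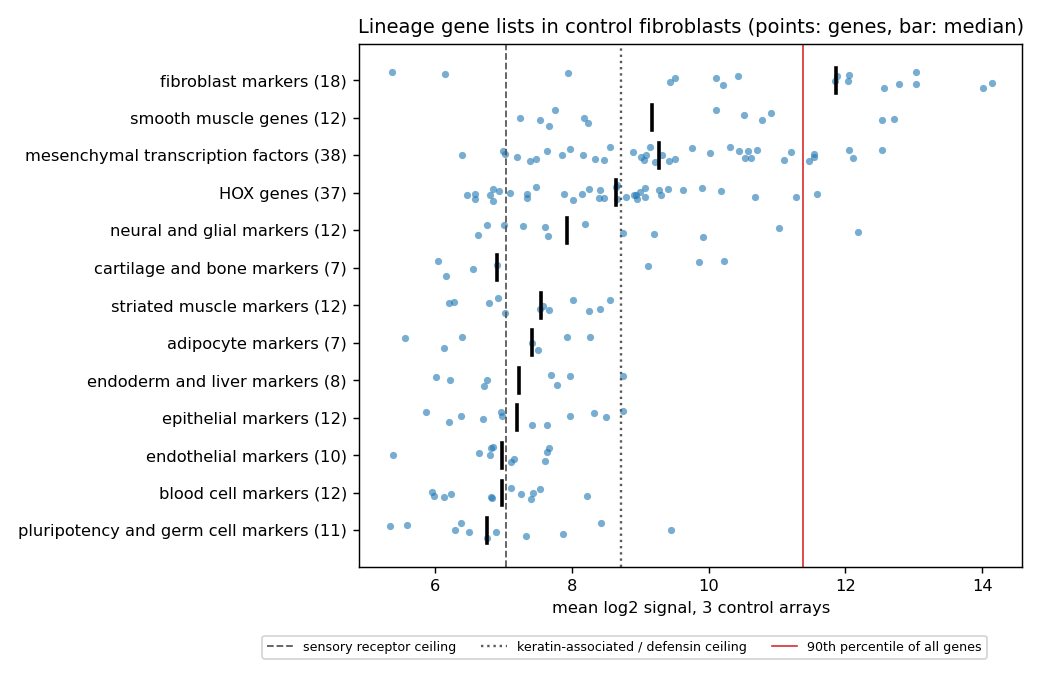
Mean log2 signal of each member (points) of 13 lineage lists over the 3 control arrays, with the list median as a black bar and the number of genes in parentheses. Fibroblast markers have a median of 11.87, and the highest epithelial, endothelial, blood, striated muscle, adipocyte or endoderm marker is at 8.75. These 6 other lists were grouped because they had 0 genes above both ceilings.

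Transcription factors give a finer picture of where in the body plan a mesenchymal cell comes from. Of 38 factors known from mesenchyme, 25 were above both ceilings (65.8%) and 6 were high (15.8%), beside 44.3% and 10.0% of all genes. Gata6, known from heart and visceral mesoderm, led with 12.59, 12.52 and 12.48. Its relative Gata4 had 11.19, 11.10 and 11.03. Wt1, a factor of the urogenital ridge and of mesothelium, had 11.62, 11.54 and 11.46. The limb and craniofacial factor Prrx1 (12.05), the zinc-finger repressor Snai2 (11.55), Runx1 (11.46) and Tbx15 (11.20) were also bright. Both forelimb Tbx5 (9.76) and trunk En1 (10.03) lay above both ceilings, while the hindlimb factor Pitx1 was between them at 7.64. The somite gene Meox2 (6.39) and Tcf21 (7.02) were near background.

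HOX genes, which encode position along the body axis, are given by cluster, with no test between clusters. Of 37 measured, 15 were above both ceilings (40.5%, near the share of all genes). The HoxC cluster had 6 of 9 above both, HoxB 5 of 9, HoxA 4 of 10 and HoxD 0 of 9. The brightest was Hoxc8 at 11.62, 11.63 and 11.49. In HoxD the brightest was Hoxd11 at 7.47, and 6 of the 9 were near background. Hoxa11 (6.59) and Hoxa13 (6.85), distal limb genes, were also near background.

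The matrix theme held 172 measured genes, of which 85 were above both ceilings (49.4%, near the 44.3% of all genes) and 42 were high (24.4%, beside 10.0% of all genes). All 17 genes that process or crosslink collagen were above both ceilings and 10 were high. They included the procollagen enhancer Pcolce (13.55), the prolyl hydroxylase subunit P4hb (13.27), the crosslinking oxidase Lox (13.12) and the collagen chaperone Serpinh1 (11.55). Of 44 collagen chains 16 were above both ceilings (36.4%) and 5 were high (11.4%), shares near those of all genes. Besides collagen I the high chains were Col6a1 (11.88), Col6a2 (11.80) and Col12a1 (11.49). Col3a1, the second fibrillar collagen of soft tissue, had a mean of 10.11. The third collagen VI chain, Col6a3, lay between the ceilings at 7.75, and Col10a1 of hypertrophic cartilage was near background at 7.09.

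Among 36 matrix glycoproteins 25 were above both ceilings (69.4%) and 12 were high (33.3%), beside 44.3% and 10.0% of all genes. Sparc, a collagen-binding regulator of matrix assembly, had 14.10, 14.04 and 14.07, and Thbs1, Tnc, Fbln2 and Postn had means of 12.59, 12.51, 12.37 and 12.14. Elastin, Eln, was between the ceilings at 7.73, and Mfap5, a microfibril protein of elastic tissue, was near background at 6.79, 6.96 and 6.91. Proteoglycans were split. Biglycan, Bgn, had 13.76, 13.70 and 13.75, while Aspn, of the same small leucine-rich family, had 4.79, 4.81 and 4.55.

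Metalloproteinases cleave matrix and TIMP proteins inhibit them. Of 21 metalloproteinases 6 were above both ceilings (28.6%, beside 44.3% of all genes). They were led by Mmp2 (12.56) and its membrane-bound activator Mmp14 (11.52). Stromelysin Mmp3 was near background at 5.97, 6.13 and 6.07. The inhibitors Timp3 (13.61, 13.55 and 13.63), Timp2 (mean 12.79) and Timp1 (mean 11.66) were high, and Timp4 (mean 5.80) was near background.

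Integrins and cadherins bind cells to matrix and to each other. Of 26 integrin chains 8 were above both ceilings (30.8%, beside 44.3% of all genes). They were Itgb1 (12.27), Itgav (11.92), Itgb5 (11.81), Itga5 (11.59), Itga3 (10.99), Itga6 (10.94), Itgb8 (9.54) and Itgb3 (9.28). Itgb1 with Itga5, and Itgav with Itgb3 or Itgb5, form receptors for fibronectin or vitronectin. The leukocyte chains Itgal (6.79), Itgam (6.24) and Itgax (6.26) were near background. Of 12 cadherins, N-cadherin Cdh2 (12.98, 13.01 and 13.02), Cdh11 of mesenchyme (12.96, 12.94 and 12.96) and P-cadherin Cdh3 (12.082, 11.995 and 12.014) were high, and Cdh6 was above both ceilings at 10.04. P-cadherin is known mainly from epithelium but was not in the list of 12 epithelial markers, of which 0 were above both ceilings.

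Dividing cells pass through DNA synthesis, driven by E2F factors and the MCM helicase, and mitosis, driven by cyclin A and B with Cdk1. All 35 mitosis genes were above both ceilings and 20 were high (57.1%), with a median signal of 11.68. Of 39 replication genes 38 were above both (97.4%) and 19 were high (48.7%), with a median of 11.35. Over all genes 44.3% were above both and 10.0% were high, with a median of 8.37. Ccna2 had 13.17, 13.18 and 13.17, Cdk1 had 13.05, 13.07 and 13.08, and the proliferation marker Mki67 had 12.17, 12.19 and 12.28. The sliding clamp gene Pcna had a mean of 13.38. The replication licensing inhibitor Gmnn was the exception among replication genes, between the ceilings at 7.81. Rpa1, a subunit of the single-strand binding complex and a knockdown target elsewhere in the study, had 11.40, 11.42 and 11.41 in these controls. The array signal does not say what share of cells was dividing.

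Cyclins with their kinases drive entry into the cycle and CDK inhibitors hold it back. Of 19 G1 cyclin, kinase and E2F or pocket protein genes 18 were above both ceilings (94.7%, beside 44.3% of all genes). Cdk4 had 13.83, 13.86 and 13.82, and E2f2 was between the ceilings at 8.45. The CDK inhibitors Cdkn1b (11.95, with its other row at 8.86), Cdkn2a (10.53, 10.69 and 10.49), Cdkn2b (10.43), Cdkn2c (10.18) and Cdkn1c (9.17) were above both ceilings, and Cdkn2d was between them at 8.64. Cdkn2a encodes the inhibitor p16INK4A and the p53 activator ARF. The labels do not say how the line was immortalized. Telomerase RNA Terc read 11.65, while the reverse transcriptase gene Tert was near background at 6.86, 6.89 and 6.93. Meiosis genes stood at the other end: 15 of 20 were near background, with a median of 6.11. The germ line cyclin Ccna1 had a mean of 6.79 and the recombinase Dmc1 6.19. Syce2, of the synaptonemal complex, was the exception at 9.09.

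Promoters of cell cycle genes are known for CCAAT boxes, for the cell cycle homology region (CHR) read by the DREAM complex, and for E2F sites. The windows of Ccnb2, Cdk1 and Mcm5 are shown because each joins CCAAT to other motifs: the CHR in Ccnb2, E2F in Mcm5, both in Cdk1. Capitals mark CCAAT, the CHR as TTTGAA, and E2F as TTTCGCGC or TTTGGCGC, each searched on both strands. In Mcm5 both E2F forms overlap in a single run. Ccnb2 lies at chr9:70421555-70421804 (-), Cdk1 at chr10:69352913-69353162 (-) and Mcm5 at chr8:75109259-75109508 (+), all in RefSeq GRCm38.p6 and upstream of the transcript.
Ccnb2: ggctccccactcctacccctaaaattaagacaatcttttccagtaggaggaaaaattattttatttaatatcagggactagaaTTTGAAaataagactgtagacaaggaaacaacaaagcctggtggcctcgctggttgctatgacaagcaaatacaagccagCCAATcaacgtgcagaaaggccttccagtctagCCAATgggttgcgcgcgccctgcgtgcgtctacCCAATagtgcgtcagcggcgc
Cdk1: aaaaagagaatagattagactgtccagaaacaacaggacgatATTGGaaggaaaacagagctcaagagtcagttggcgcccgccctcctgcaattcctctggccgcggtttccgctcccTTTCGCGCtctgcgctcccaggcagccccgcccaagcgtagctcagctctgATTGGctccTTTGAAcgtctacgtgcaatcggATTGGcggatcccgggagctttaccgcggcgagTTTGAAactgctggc
Mcm5: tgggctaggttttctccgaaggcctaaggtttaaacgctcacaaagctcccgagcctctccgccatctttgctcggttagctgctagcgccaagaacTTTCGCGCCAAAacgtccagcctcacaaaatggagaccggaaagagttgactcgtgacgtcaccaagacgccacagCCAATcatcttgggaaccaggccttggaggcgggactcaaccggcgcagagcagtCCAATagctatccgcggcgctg
Ccnb2 has 3 CCAAT boxes, beginning 87, 54 and 21 bases before the start, and a CHR match 167 to 162 bases before it. Signals of Ccnb2 were 12.68, 12.75 and 12.70. Cdk1 has 3 CCAAT boxes in the reverse orientation, 2 CHR matches beginning 71 and 15 bases before the start, and an E2F match. Mcm5, an MCM helicase subunit with signals of 12.29, 12.35 and 12.27, has 2 CCAAT boxes and its E2F run between 153 and 142 bases before the start. A CCAAT was found in 23 of 29 mitosis promoters (79.3%) and 19 of 31 replication promoters (61.3%), beside 35.5% of all 15614 ranked genes with a promoter window. The CHR was found in 12 of 29 mitosis promoters (41.4%), 4 of 31 replication promoters (12.9%) and 13.7% of all. Its letters are AT-rich, and they were also found often in the AT-rich promoters of sensory receptor genes (34.9%) and of the lowest decile of signal (30.2%). These groups overlap: the median signal of the sensory receptor genes, 5.41, lay below the 10th percentile of all genes, 5.68. An E2F match was found in 5 of 31 replication promoters (16.1%), 2 of 29 mitosis promoters (6.90%) and 0.935% of all. The 5 replication genes were Mcm5, Mcm6, Orc1, Pola1 and Rfc3. These matches are of letters only.

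Molecular chaperones fold new proteins and rescue damaged ones. Constitutive members serve translation, and stress-inducible members are switched on by heat shock factors. Of 126 chaperone genes 95 were above both ceilings (75.4%) and 31 were high (24.6%), beside 44.3% and 10.0% of all genes. In the HSP70 family the constitutive Hspa8 led with 14.09, 14.07 and 14.11, followed by the endoplasmic reticulum (ER) member Hspa5 (12.86) and the mitochondrial member Hspa9 (12.77). The stress-inducible Hspa1a had 9.09, 8.95 and 9.04, above both ceilings and at the 57.9th percentile of all genes. Hspa1l, known from the testis, was near background at 6.76.

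The chaperonin TRiC folds actin and tubulin. Of 15 TRiC and prefoldin genes 13 were above both ceilings and 9 were high, led by Cct2 (13.50). The 2 versions of the zeta subunit separated: Cct6a had 12.83, 12.80 and 12.85, and the testis version Cct6b had 6.15, 6.15 and 6.11. Prefoldin 4, Pfdn4, lay between the ceilings at 8.25. All 11 mitochondrial chaperones and proteases were above both ceilings, including Hspe1 (12.62) and Hspd1 (12.25). Of 21 ER chaperones 17 were above both and 8 were high, with calnexin Canx at 13.52 and calreticulin Calr at 12.93. The near-background ER genes Clgn (6.28), Pdilt (6.08) and Pdia2 (6.07) are known from testis or pancreas.

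Of 15 HSP90 proteins and partners 14 were above both ceilings, with Hsp90b1 (12.93), Ptges3 (12.91, with its lowest row at 10.49), Hsp90aa1 (12.87) and Stip1 (12.86) highest. The muscle co-chaperone Unc45b lay between the ceilings at 7.16 and was not called above the first without array 1. DNAJ proteins, which hand clients to HSP70, were above both ceilings in 32 of 43 cases. The list's 1 high gene, Dnajc13 (11.55), rested on the choice among 15 rows, of which the lowest had 8.34. Small heat shock proteins were uneven. Hspb1 (12.27, 12.05 and 12.11), Hspb6 (11.63) and Cryab (11.61) were high and Hspb8 was above both ceilings at 10.61, while Hspb2, Hspb3, Hspb7, Hspb9, Hspb11 and Cryaa lay between the ceilings. Among heat shock factors other than Hsf1, which was not analysed here, Hsf2 had 10.05, 10.15 and 10.21 and Hsf4 a mean of 9.44. Hsf5, Hsfy2 and Hsf3 were near background.

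Heat shock factors bind inverted repeats of GAA, of which the shortest pair is GAANNTTC. The promoter of Hspb1 is shown because it is the brightest small heat shock gene and holds 2 such pairs, in capitals. It lies at chr5:135887669-135887918 (+) in RefSeq GRCm38.p6, upstream of the transcript.
Hspb1: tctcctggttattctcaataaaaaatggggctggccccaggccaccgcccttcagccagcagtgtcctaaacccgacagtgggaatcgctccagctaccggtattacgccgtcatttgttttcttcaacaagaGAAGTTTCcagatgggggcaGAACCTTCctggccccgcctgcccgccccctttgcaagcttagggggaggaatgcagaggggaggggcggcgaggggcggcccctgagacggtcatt
The pairs begin 117 and 97 bases before the start. Over the chaperone theme the pair was found in 8 of 104 promoters (7.69%), close to the 5.89% of all promoters. The 8 were not all bright: Hspe1 and Hspb1 were high, Dnaja1, Fkbp4 and Hspa1a were above both ceilings, Hspb3 and Dnajc27 were between them and Dnajb6 was near background at 6.97.

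Fibroblasts take part in innate immunity: they sense viral nucleic acid, respond to interferon and call in leukocytes with chemokines, but do not make lymphocyte receptors. Of 193 immune genes 77 were above both ceilings (39.9%, near the 44.3% of all genes), 44 were between them and 72 were near background (37.3%, beside 32.0%). Of 23 cytokine and interferon receptors 15 were above both ceilings, among them Ifngr2 (13.24, 13.21 and 13.18), the shared chain Il6st (12.84, 12.87 and 12.90), Ifnar2 (12.17), Tnfrsf1a (11.57) and Ifnar1 (11.42). Of 26 cytokines 3 were above both: the macrophage growth factor Csf1 (11.98, 11.98 and 12.03), Il33 (9.55) and the stem cell factor Kitl (9.14). The IL-6 receptor chain Il6ra had a mean of 9.01, above both ceilings but not high, and Il6 was near background at 6.32, 6.69 and 6.86. Il1b (6.59), Tnf (6.60) and Ifnb1 (6.07) were near background too. All 18 lymphocyte genes were between the ceilings (6) or near background (12).

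Chemokines covered a wide range. Of 30, 4 were high, 5 more were above both ceilings, 7 were between them and 14 were near background. The interferon-inducible Cxcl10 had 12.17, 12.33 and 12.63, the monocyte attractant Ccl2 had 12.04, 12.17 and 12.28, and Cxcl12, which retains blood stem cells in marrow, had a mean of 12.23. Ccl5 had 11.45, 11.41 and 11.55. Their relatives Cxcl9 (7.40) and Cxcl11 (7.74) lay between the ceilings, and Ccl3 (6.75), Ccl4 (6.92) and Cxcl2 (6.71) were near background. TATAAA was found within 40 to 16 bases before the start in 3 of 21 chemokine promoters (14.3%), beside 2.59% of all.

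A list of 14 cytosolic sensors and adaptors had 8 above both ceilings (57.1%, beside 44.3% of all genes). Most of its genes serve the sensing of nucleic acid, but Nod1 (10.19, above both) and Nod2 sense bacterial cell wall fragments and Nlrp3 senses other signals. The adaptor Sting1 had 11.68, 11.56 and 11.58, the RNA helicase Ddx58 (RIG-I) had 11.06, 11.16 and 11.31, its adaptor Mavs had 10.73, 10.74 and 10.68, and Ifih1 (MDA5) had 8.93, 9.22 and 9.25. The inflammasome genes Aim2 (6.18) and Nlrp3 (6.39) were near background, as were the endosomal receptors Tlr7 (6.06) and Tlr8 (5.92). Tlr2 (9.64) and Tlr3 (9.18) were above both ceilings, and Tlr4 lay between them at 7.13, 7.27 and 7.22. Of 10 class I antigen presentation genes 8 were above both ceilings and 2 were high, with a list median of 9.58. The brightest was B2m, the class I light chain, at 13.72, 13.72 and 13.83, while the heavy chain gene H2-Q4 had a mean of 10.44. Class II genes were lower: of 9, Cd74 (9.49) and H2-DMa (8.90) were above both ceilings. H2-Ab1 (6.94) and H2-Aa (5.53) were near background. The class II count above the sensory receptor ceiling, 6, fell to 3 without array 1 and was 4 without array 2 or array 3.

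**Figure D4:**
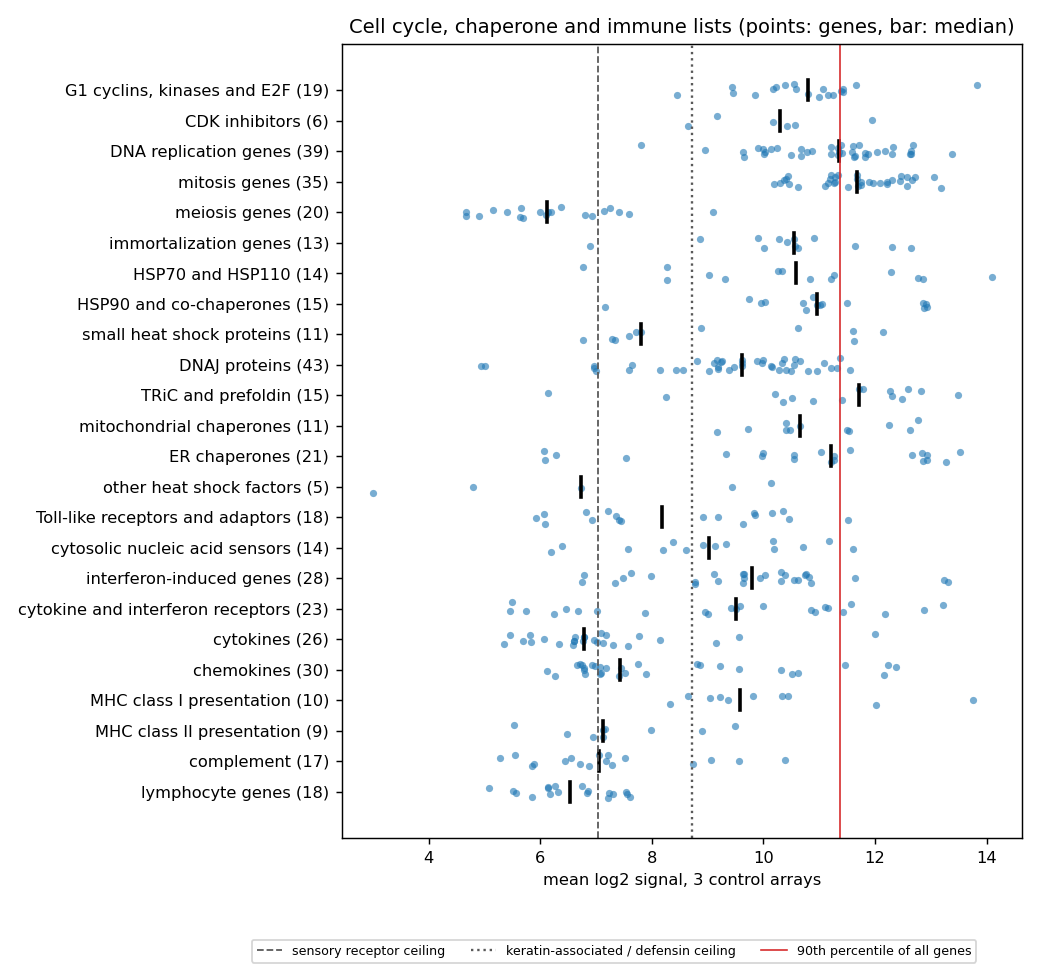
Mean log2 signal of each member (points) of the cell cycle, chaperone and immune lists over the 3 control arrays, with the list median as a black bar and the number of genes in parentheses. Mitosis genes all lie above both ceilings (median 11.68), meiosis genes have a median of 6.11, and chemokines and cytokines spread from near background to above 12 for Cxcl10.

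Of all the lists, interferon-induced genes had the largest median spread over the 3 arrays. Of 28, 20 were above both ceilings (71.4%, beside 44.3% of all genes). The brightest were the membrane restriction factors Ifitm3 (13.29, 13.25 and 13.36) and Ifitm2 (mean 13.23). Mx1 (6.75) and Iigp1 (6.78) were near background. The median SD of the list was 0.14, beside 0.057 for all genes, and 14 of the 28 had an SD above the 90th percentile of all genes, 0.135. Usp18, which removes the interferon-induced ISG15 tag and damps the receptor, had 10.43, 10.79 and 11.08. The interferon regulatory factor Irf7 had 9.33, 9.71 and 9.86, the antiviral enzyme Rsad2 had 9.74, 9.89 and 10.19, and Ifi202b, an interferon-inducible gene outside the list, had 9.04, 9.22 and 9.61. Array 1 was the lowest and array 3 the highest for 17 of the 28 (60.7%), beside 17.1% of the 8837 genes above both ceilings. Taken array by array, 20 of the 28 were above the second ceiling on every array, 6 on none, and Oasl1 and Ifitm1 on array 2 only. Cxcl10 and Ccl2 also read lowest on array 1 and highest on array 3. What separated the arrays was not tested.

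Among the 15 genes above both ceilings with the largest SD, 12 were neither in the interferon list nor Ifi202b. Of these 12, 9 were lowest on array 1, beside 3807 of the 8837 genes above both ceilings. For 4 of the 12 array 3 was also the highest, beside 17.1% of those 8837 genes. The gene above both ceilings with the largest SD was the histone gene H1f3 at 9.75, 9.23 and 9.01. Small nucleolar RNA genes such as Snora44 (9.88, 10.55 and 10.17) also appeared among the 15.

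Promoter composition followed the ranking. Vertebrate promoters fall into CpG-rich ones, typical of housekeeping genes, and CpG-poor ones, typical of tissue-restricted genes. The median ratio of observed to expected CpG in the 250 bases before the start was 0.135 in the lowest decile of signal, 0.544 in the fifth and 0.796 in the top decile, and the median GC share was 39.2% in the lowest and 62.0% in the top decile. Sensory receptor genes, many of which lie in the lowest decile, had a median ratio of 0.103. A TATAAA in the usual place was found in 5.39% of promoters in the lowest decile, 0.665% in the ninth and 1.23% in the top decile. Collagen promoters had a median CpG ratio of 0.466 over 35 genes, and Vim had 0.376, while mitosis promoters had 0.827. These are descriptions across genes, which are not independent replicates, and the base content of a probe set can also move its signal, which was not tested.

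**Figure D5:**
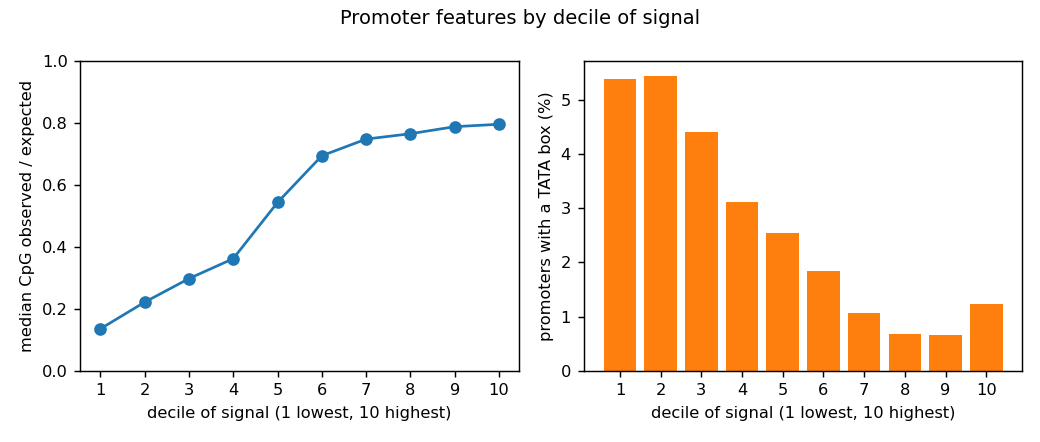
Median observed over expected CpG ratio (left) and percent of promoters with a TATA box (right) in each decile of the signal ranking, from 1 (lowest) to 10 (highest), over 15614 genes. The CpG ratio climbs from 0.135 to 0.796, and the TATA share falls from 5.39% to 0.665% in the ninth decile and is 1.23% in the top one.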

How the data were processed

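Total RNA, 1 sample per array, was hybridised to 9 arrays (Affymetrix Mouse Gene 1.0 ST), and the 3 control arrays were used. The deposited values are log2 signals, made with RMA in Partek 6.5 per the submitters' processing notes; the notes do not state the scale, and log2 was inferred from the range. Of 35557 rows, 21789 had 1 gene symbol and were used, 1621 had several and 12147 were not listed. Ceilings, ranks and the test were computed with R 4.3.3 and limma 3.58.1 (3.30 prior and 2 residual degrees of freedom). The test against the second ceiling used the prior of the first. The procedure was tested on simulated data. No signal over background was used, and 3 arrays limit the precision.

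Members and gene lists were chosen with earlier results of these data known. A rule set which genes could be named: the 30 brightest, the 5 markers given, and up to 8 brightest and 8 dimmest of each list. It also covered every member of a list of up to 12 and members that stood apart in class from their list. The 15 most variable above the ceiling and those nearest it were covered too. Only some of the genes under the rule are named, and the choice among them was made with their values known. Other named genes were chosen after their values were seen. Promoters and microRNAs came from RefSeq (GRCm38.p6), with 15614 genes matched. Alternatives were the reference genes, the percentile, the row per gene, the scaling, the variance model and leaving out each array.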

Additional observations from a re-analysis of the deposited data

How the results depend on the processing

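The choice of reference genes moved the counts most. Against the keratin-associated and beta-defensin ceiling, chosen after seeing the data, 8837 genes were above and 10540 below, in place of 13566 and 5611. The lineage, matrix and immune counts above the ceiling were 67, 85 and 77 in place of 136, 146 and 121, and the cell cycle and chaperone counts stayed within 1.5 times. With vomeronasal and taste receptors alone as the reference, 3127 genes were below. The other 99 recomputed counts over all genes and themes stayed within 1.5 times, and leaving out each array gave 13410 to 13563 genes above. Counts within single lists moved more. Each of these settings gave 117 values: list counts above or near the ceiling and, for a few markers, the log2 difference from it. Only the counts could be called moved by over 1.5 times. Of the 117, 59 moved under the keratin-associated and beta-defensin reference and 43 under vomeronasal and taste receptors alone. At the 99th and 90th percentile of the sensory receptors 36 and 19 moved. At most 3 moved under any other reference, scaling, row or variance setting. Doubling the share of genes called high moved 16 of 55 counts of high genes. Without 1 array, 537 values were recomputed, mostly list and theme counts with some marker differences. Of these, 5 counts moved by over 1.5 times, in the HSP90 and class II lists. No paired analysis was possible because the results come from 1 group and from no comparison between groups. The arrays hold no read depth; values between the ceilings had signal too close to the reference classes to be placed.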

Other observations

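Of 31 growth factor receptors 23 were above both ceilings (74.2%, beside 44.3% of all genes). They were led by Bmpr2 (12.46), the TAM receptor Axl (12.25) and Pdgfrb (12.03). Erbb4 (6.44) and Ntrk2 (6.43) were near background. Among 34 growth factors, Igf2 (12.67, 12.51 and 12.46), Bmp4 (mean 12.49) and Tgfb3 (mean 11.93) were high, while Hgf (6.36), Fgf1 (6.46) and Fgf7 (6.94), the last known as a fibroblast product, were near background. Of 15 imprinted genes and long non-coding RNAs 12 were above both ceilings and 7 were high, Meg3 was between the ceilings at 8.78, and Ndn (7.10) and Rian (6.25) were near background. Peg10 had 13.49, 13.47 and 13.51, and Mest, Grb10 and Peg3 had means of 11.97, 11.97 and 11.95. In the S100 family S100a11 (13.71), S100a10 (13.52) and S100a6 (12.17) were high, and the neutrophil genes S100a8 (5.85) and S100a9 (6.87) were near background. In glycolysis the widely used Ldha (13.18), Pgk1 (12.71) and Pgam1 (13.03) were high, and the germ line or muscle copies Ldhc (6.71), Pgk2 (5.47) and Pgam2 (7.04) were near background.

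Xist, the RNA of the inactive X chromosome, had 12.91, 12.88 and 13.05. The Y-linked genes Kdm5d (5.86), Uty (5.29), Zfy1 (5.03) and Eif2s3y (4.06) were near background, and Sry was between the ceilings at 8.19. Of the receptors that adenovirus uses, Cxadr had 11.14, 11.06 and 11.09 and the integrin chains Itgav (11.92) and Itgb5 (11.81) were high, while Cd46 (5.91), Cd80 (6.73) and Cd86 (5.74) were near background.

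Of 296 microRNA genes 15 were above both ceilings (5.07%), 76 were between them and 205 were near background (69.3%), with 0 in the top decile. Of all genes 44.3% were above both and 32.0% were near background. The signal is that of a probe set for the gene, and whether it came from the precursor or the mature form was not tested. Among those above both were Mir210 (9.57), known from hypoxia, and Mir15a (9.10), known to target cell cycle genes. Their mature strands in RefSeq (GRCm38.p6, chr7:141221407-141221428 and chr14:61632075-61632096, both on the - strand) are given 5′ to 3′ with the seed, bases 2 to 8, in capitals, since the seed sets the target. They were chosen after their values were seen.
miR-210-3p: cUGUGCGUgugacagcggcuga
miR-15a-5p: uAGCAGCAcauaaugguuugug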
